A study of Sus scrofa with 2 samples.

Results

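S100A4, S100A6, S100A10 and S100A11 are 4 genes of the S100 family, small proteins that carry paired EF-hand loops for calcium. They were taken by symbol from the 28155 gene rows of the count matrices, in every barcode with at least 1000 genes. They were selected on their measured level and their spread between these cells, so both are given as a description with no test. The cells were ADSCs, stromal cells of fat that adhere to plastic and can be grown on, from Bama miniature pigs with no treatment. Fat from the chest was the source, and the cells had been through 3 generations of culture in at most 14 days before they were frozen. There were 2 libraries of 1 group, and the labels do not say whether they came from separate animals or cultures. The p-values below therefore speak for these libraries only. They rest largely on a spread pooled over genes, as each fit left only 1 or 2 residual degrees of freedom.

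Most S100 proteins form dimers that open a binding surface when calcium rises and then hold other proteins. In human and mouse cells, S100A4, also called fibroblast-specific protein, binds the heavy chain of non-muscle myosin and loosens its filaments. S100A6, or calcyclin, binds the calcyclin-binding protein CACYBP and several annexins. S100A10 has lost calcium binding and forms a fixed complex with annexin A2 at the plasma membrane, while S100A11 pairs with annexin A1 and annexin A2. S100A4 and S100A6 are widely found in fibroblasts and other mesenchymal cells in culture.

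After the filter there were 10559 cells in library 1 and 11984 in library 2, with a median of 19845 and 19651.5 UMIs (unique molecules counted) per cell. Of 12 stromal marker genes, 11 reached 10 CPM (counts per 1000000 UMIs) in each library. The summed level of 9 macrophage and neutrophil markers was 3.98 CPM in library 1 and 1.58 CPM in library 2, and among 5 endothelial markers only PECAM1 reached 10 CPM. The libraries shared 46 barcode sequences, 35 of them among the cells kept.

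All 4 genes lie on chromosome 4 of Sscrofa11.1, in RefSeq's annotation, as 2 close pairs. S100A4 (chr4:96088102-96091160) and S100A6 (chr4:96098264-96099686) are 7103 bases apart with S100A5 (chr4:96093204-96096870) between them. S100A11 (chr4:97233833-97239081) and S100A10 (chr4:97261752-97272517) are 22670 bases apart, and 1134146 bases separate S100A6 from S100A11. These intervals span whole genes, introns included.

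S100A6 was the second most counted gene of both libraries, after vimentin. Its level was 10892 CPM in library 1 and 10535 CPM in library 2, a mean of 10714 ± 253 CPM (SD, n = 2). S100A4 ranked 15 in each library, at 6843 and 6697 CPM in libraries 1 and 2 (6770 ± 103 CPM, SD, n = 2). S100A11 stood at 2055 and 1779 CPM in libraries 1 and 2, and S100A10 at 1807 and 1569 CPM.

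The order S100A6, S100A4, S100A11, S100A10 was the same in both libraries. S100A6 exceeded S100A4 by 1.59 times in library 1 and 1.57 times in library 2, well beyond the difference between libraries. S100A11 and S100A10 were neighbours in the order: they averaged 1917 ± 195 and 1688 ± 169 CPM (SD, n = 2 each), so their ranges over the libraries overlapped, though S100A11 was the higher of them within each. The exact Poisson 95% interval of S100A6 in library 1 ran from 10878 to 10907 CPM, and such intervals cover counting error only. S100A10 and S100A11 were 15.2% and 15.5% higher in library 1 than in library 2. Among 8042 genes of at least 10 CPM, 45.3% differed between the libraries by at least as much as S100A10.

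**Figure D1:**
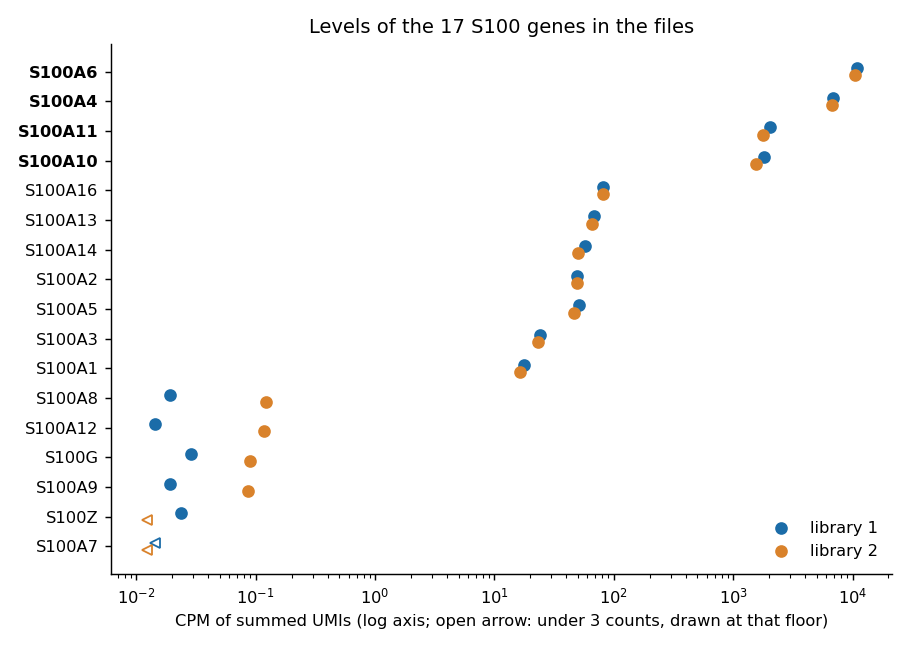
Level of each S100 gene in CPM (log axis) in libraries 1 and 2, each point being 1 library. S100A6, S100A4, S100A11 and S100A10 sit far above the other family members, which stay at or under about 81.0 CPM.

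The 4 genes made up 2.16% of all UMIs in library 1 and 2.06% in library 2. They held 98.4% of the UMIs of the 17 S100 genes in the matrices. The next gene, S100A16, had 81.0 and 80.7 CPM in libraries 1 and 2, and S100A13 had 68.7 and 65.1 CPM. S100A5, which lies between S100A4 and S100A6, had 51.3 and 46.5 CPM, so S100A4 was counted 133 and 144 times as often in libraries 1 and 2. The phagocyte genes S100A8, S100A9 and S100A12, whose proteins are secreted by neutrophils, stayed between 0.0143 and 0.122 CPM. S100G, S100Z and S100A7 reached at most 0.0896 CPM in either library.

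To compare cells of unequal depth, each cell with enough counts was thinned to 5000 UMIs, which left 9581 cells in library 1 and 11598 in library 2. S100A6 was seen in all cells of library 1, and 2 cells of library 2 had none. S100A4 was missing from 20 and 17 cells, 0.209% and 0.147% of libraries 1 and 2. A UMI in a droplet can also come from free RNA, whose share was not estimated, and barcodes under 1000 genes held S100A6 at 9777 and 8162 CPM in libraries 1 and 2. These shares therefore do not show how many cells expressed the genes.

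S100A4 had the widest range of the 4 genes as a ratio of percentiles. Its 5th percentile, median and 95th percentile were 7, 32 and 71 UMIs in library 1 and 7, 30 and 68 UMIs in library 2. The 95th percentile was therefore 10.1 and 9.71 times the 5th, against 4.26 and 4.57 times for S100A6. In UMIs the range of S100A6 was wider, with a 5th and 95th percentile of 23 and 98 in library 1 and 21 and 96 in library 2. S100A6 had a median of 51 and 49 UMIs in libraries 1 and 2, S100A11 10 and 8 UMIs, and S100A10 8 and 7 UMIs.

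**Figure D2:**
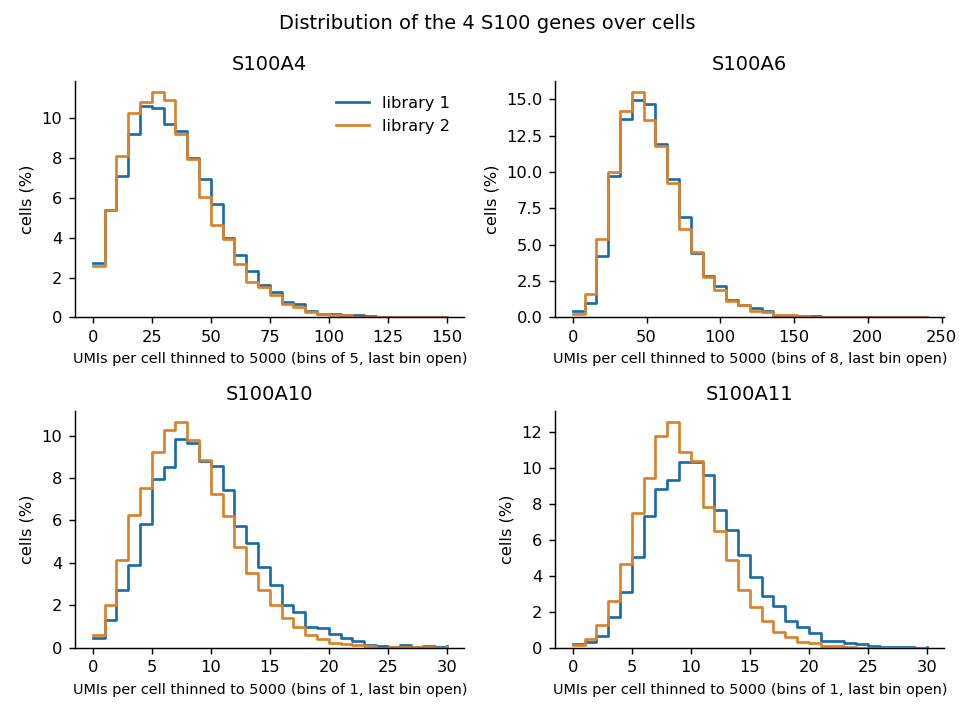
Share of cells (%) by UMIs of each gene per cell thinned to 5000 UMIs, for libraries 1 and 2. S100A4 spreads from near 0 to over 71 UMIs around a median of 32 UMIs in library 1, while S100A11 is narrow around 10 UMIs.

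Counting alone spreads a low gene more than a high one, so the squared coefficient of variation was taken after removing the counting part, 1 over the mean. This excess was 0.302 and 0.297 for S100A4 in libraries 1 and 2, and 0.171 and 0.177 for S100A6. It was 0.125 and 0.129 for S100A10, and lowest for S100A11, at 0.0642 and 0.0408. The order S100A4, S100A6, S100A10, S100A11 was the same in both libraries, and differed from the order of levels.

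Among the 200 genes nearest in mean, S100A4 exceeded 88% and 87% in libraries 1 and 2, S100A6 80% and 81%, S100A10 72.5% in both, and S100A11 57% and 50%. Few genes are this abundant, so the neighbours were also limited to genes within 2-fold of each member's mean, a choice made after seeing the data. S100A4 then had more excess spread than all 44 such genes in library 1 and all 50 in library 2. S100A6 was exceeded only by S100A4 among its 19 and 20 such genes. Within 2-fold of their means S100A10 exceeded 78.3% and 74.1% of genes in libraries 1 and 2, and S100A11 67.6% and 55.6%.

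**Figure D3:**
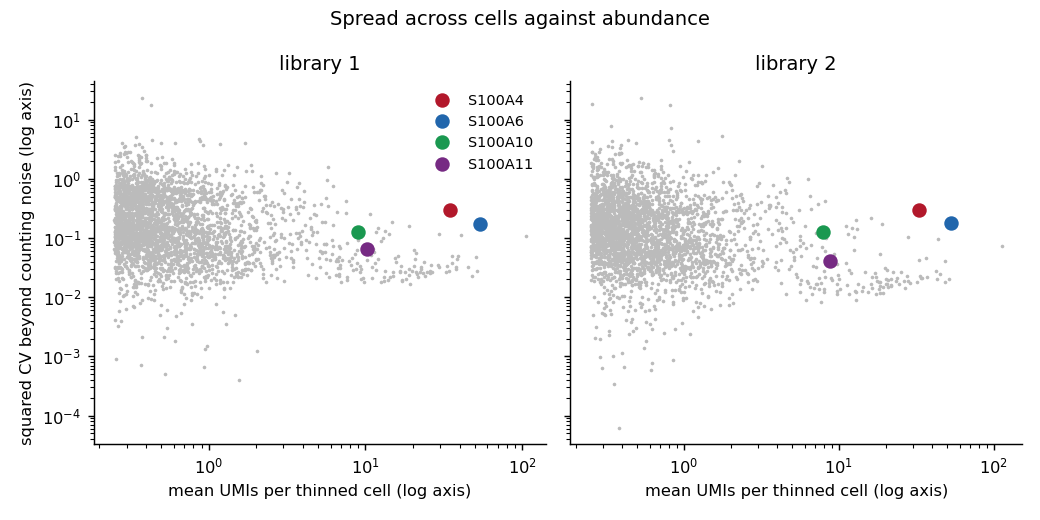
Excess squared coefficient of variation (log axis) against mean UMIs per thinned cell (log axis), 1 panel per library. The 4 S100 genes are in colour. Grey points are genes with a mean of at least 0.25 UMI and an excess above 0. S100A4, at 0.302 in library 1, lies at the top of the genes of its abundance, and S100A11, at 0.0642, lies within the body of the cloud.

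Across cells, S100A6 and S100A10 went together most. Pearson's r of log-transformed thinned UMIs was 0.45 in library 1 (9581 cells) and 0.44 in library 2 (11598 cells). S100A6 with S100A11 gave 0.32 and 0.25, and S100A10 with S100A11 gave 0.25 and 0.19. S100A4 gave 0.20 and 0.18 with S100A10, and 0.15 and 0.06 with S100A11. For S100A4 with S100A6, its near neighbour on the chromosome, r was 0.02 in library 1 and -0.01 in library 2, and at 10000 UMIs per cell -0.09 and -0.04. Cells of 1 library share their culture and preparation, and equal totals tie abundant genes to each other, so these values describe the cells only.

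Among non-cycling cells r of S100A4 with S100A6 was 0.01 in library 1 and 0.11 in library 2. These cells were also ranked by S100A4. The 25% of cells with most S100A4 averaged 67.7 UMIs of it, against 12.9 UMIs in the 25% with least, in library 1. S100A6 averaged 53.8 UMIs in the S100A4-rich cells and 57.7 UMIs in the S100A4-poor cells of library 1, and 51.4 and 50.02 UMIs in those of library 2, which are differences of opposite sign. S100A10 averaged 10.0 UMIs in the S100A4-rich and 7.56 UMIs in the S100A4-poor cells of library 1, and 8.49 and 6.01 UMIs in those of library 2.

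The genes most like each member across cells were ranked over 2659 genes by the lower r of both libraries, with the 4 members left out of the ranking. Genes had to average at least 0.25 UMI per thinned cell in both libraries. Counting noise pulls r towards 0 in genes of few UMIs and was not adjusted for, so the ranking favours abundant genes. For S100A10, ANXA2, which encodes its binding partner annexin A2, came first, with r of 0.38 and 0.36 in libraries 1 and 2, below the r of S100A10 with S100A6. ANXA2 was as close to S100A6, at 0.39 in both libraries, so its likeness was not particular to S100A10. CAV1, which encodes the caveolar coat protein caveolin, and the surface glycoprotein gene CD99 were also among the 5 genes most like S100A10. CAV1 had r of 0.31 and 0.42 with S100A10 in libraries 1 and 2, above ANXA2 in library 2. Of the annexin partners of S100A11, ANXA1 had r of 0.12 and 0.03 with it, and ANXA2 had 0.12 and 0.14. For S100A11 the most alike gene was TMSB10, which encodes an actin monomer-binding thymosin, at 0.43 and 0.28.

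For S100A6 the most alike gene was LGALS1, which encodes the lectin galectin, at 0.49 and 0.47 in libraries 1 and 2. The least alike gene of S100A6, and of S100A10 too, was TPM1, which encodes a tropomyosin of actin filaments. Its r was -0.34 and -0.43 with S100A6, and -0.31 and -0.39 with S100A10. For S100A4 the most alike gene by this ranking was FTL, the ferritin light chain gene, at only 0.28 and 0.25. LGALS1 had a higher r with S100A4 in library 1, at 0.30, and a lower one in library 2, at 0.23. The least alike genes of S100A4 included the histone gene H2AFZ, at -0.11 and -0.12, and HMGB2, which encodes a chromatin protein of dividing cells.

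Cells were next split by state, with the classes set by other genes. A cell was cycling if at least 3 of 15 mitotic and proliferation genes were seen in it, and non-cycling if 0 were. These genes were scored in thinned cells, which gave 1903 non-cycling cells in library 1 and 2516 in library 2. On full counts, before thinning, only 302 and 483 cells of libraries 1 and 2 had 0 of these genes. Most non-cycling cells therefore held some cycle RNA, and the contractile, collagen and inflammatory classes below were drawn from them. Counts were summed per library and class and fitted with edgeR's quasi-likelihood test with the library as a block, with Benjamini-Hochberg adjustment over all genes. A gene was called changed at an adjusted p under 0.05, a log2 fold change of at least 0.5 in size and the same sign in both libraries. Fold changes are after scaling for library makeup, so they can differ from plain CPM ratios.

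None of the 4 genes was called between cycling and non-cycling cells, where 18.7% of 17034 genes were called. S100A4 came closest: it had 6299 CPM in the 3810 cycling cells, against 7509 CPM in the 1903 non-cycling cells, of library 1. In library 2 the 4594 cycling cells had 6118 CPM, against 7288 CPM in the 2516 non-cycling cells. Both libraries were lower in cycling cells. The log2 fold change was -0.31 ± 0.06 (SE), with an adjusted p of 2.5e-07 by edgeR's quasi-likelihood test, but the fold change was under the size asked for. With the class set on full counts it was -0.13, with an adjusted p of 0.110, and without the library block the adjusted p was 0.0649. With no minimum size 45.5% of all genes pass.

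The level of S100A4 was lower where more of the 15 cycle genes were seen. In library 1 it was 7509, 7229, 6613, 6052 and 6173 CPM in cells with 0, 1-2, 3-5, 6-8 and 9-15 of them, and in library 2 it was 7288, 7075, 6220, 5982 and 6126 CPM. The lowest level was thus reached at 6-8 genes in both libraries. Per cell, S100A4 had 150.02 UMIs in cycling and 147.1 UMIs in non-cycling cells of library 1, where cycling cells had a median total of 22701.5 UMIs and non-cycling cells 19252. In library 2 it had 140.1 UMIs in cycling and 146.6 UMIs in non-cycling cells, with median totals of 20801 and 20203.5 UMIs, so counts per cell ran opposite ways in the libraries.

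S100A6, S100A10 and S100A11 were further from a call, which does not show that their levels were equal. Their log2 fold changes were -0.02, 0.12 and 0.03, with adjusted p of 0.785, 0.0572 and 0.740 by edgeR's quasi-likelihood test. In cycling cells S100A6 had 10867 CPM, against 10848 CPM in non-cycling cells, in library 1, and 10643 against 10146 CPM in library 2. Its sign turned when the class was set on full counts. The log2 fold change was then 0.22, with an adjusted p of 0.0012 by edgeR's quasi-likelihood test. The non-cycling cells of that setting had a median total of 10825 and 11544 UMIs in libraries 1 and 2. The cycling cells of that setting had 23292.5 and 22134 UMIs. In that setting S100A10 had 0.27, with an adjusted p of 0.00031, and among cells between the quartiles of depth it had 0.03.

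Cells were also classed as S phase, with at least 3 of 14 replication genes seen, or late-cycle, with at least 3 of 15 mitotic genes, each with at most 1 of the other list. Non-cycling cells that met either rule were left out of the non-cycling class in this fit. No member was called in S phase, where 9.08% of 15711 genes were, or late in the cycle, where 15.1% were. S100A4 had a log2 fold change of -0.14 ± 0.04 (SE) in S phase cells and -0.29 ± 0.04 in late-cycle cells against non-cycling cells, with adjusted p of 9.0e-04 and 4.6e-11 by edgeR's quasi-likelihood test. The difference between the phases was not tested. S100A10 had 0.13 ± 0.04 in S phase, with an adjusted p of 0.0039.

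Among 7 other S100 genes tested in cycling cells, 3 fell and none rose, where 10.1% of all genes were called lower and 8.63% higher. S100A1 had 12.4 CPM in cycling cells, against 24.8 CPM in non-cycling cells, of library 1, and its log2 fold change was -1.06. S100A13 fell by 0.69 and S100A14 by 0.50 on the log2 scale. The intervals of S100A1 and S100A13 overlap in the annotation, so how reads of the overlap were assigned is not known here. The median log2 fold change of the 7 genes was -0.42, against -0.01 over all genes.

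Among 11 annexins, ANXA13 alone was called in cycling cells and fell, at a log2 fold change of -1.14 and levels of at most 1.34 CPM, and the median of the 11 was 0.07. Of 11 genes listed as S100 partners, not all of them direct binders (DIAPH1 is listed as a pathway adapter), TPM1 alone was called, and it fell by 1.02. Of 15 other EF-hand genes, CALM2, a calmodulin gene, rose by 0.53, while SPARC fell by 0.76 and the myosin light chain gene MYL9 fell by 1.10 on the log2 scale. The medians were -0.15 for the partners and -0.11 for the EF-hand genes.

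Non-cycling cells were then ranked within each library by 7 contractile genes, among them ACTA2, TAGLN and TPM1, which encode the smooth muscle actin cytoskeleton. The 25% highest and 25% lowest cells were compared, 475 each in library 1 and 629 each in library 2. Such classes are ranges of a score, not cell types: 3.26% and 2.46% of non-cycling cells lay at the upper cut in libraries 1 and 2, and 12.3% and 10.7% at the lower. S100A6 and S100A10 fell in contractile-high cells, and 10.6% of 13098 genes were called, 5.38% as lower.

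S100A6 had 8763 CPM in contractile-high and 12811 CPM in contractile-low cells of library 1, and 7517 CPM in contractile-high and 12800 CPM in contractile-low cells of library 2. Its log2 fold change was -0.61 ± 0.04 (SE), with an adjusted p of 2.2e-14 by edgeR's quasi-likelihood test. Both contractile-high values lay below both contractile-low values. S100A10 had 1352 CPM in contractile-high and 1976 CPM in contractile-low cells of library 1, and 1024 and 1798 CPM in those of library 2. Its log2 fold change was -0.63 ± 0.05 (SE), with an adjusted p of 3.8e-12 by the same test.

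Both calls needed the library block: without it the adjusted p was 0.204 for S100A6 and 0.350 for S100A10, at log2 fold changes of -0.60 and -0.62. With classes set at 3000 UMIs, S100A6 came to -0.49, just under the size asked for. S100A11 was not called, with a log2 fold change of 0.00 and an adjusted p of 0.969 by edgeR's quasi-likelihood test, and had opposite signs in the libraries. S100A4 had -0.15 ± 0.05 (SE), with an adjusted p of 0.0157, at -0.04 in library 1 and -0.26 in library 2.

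**Figure D4:**
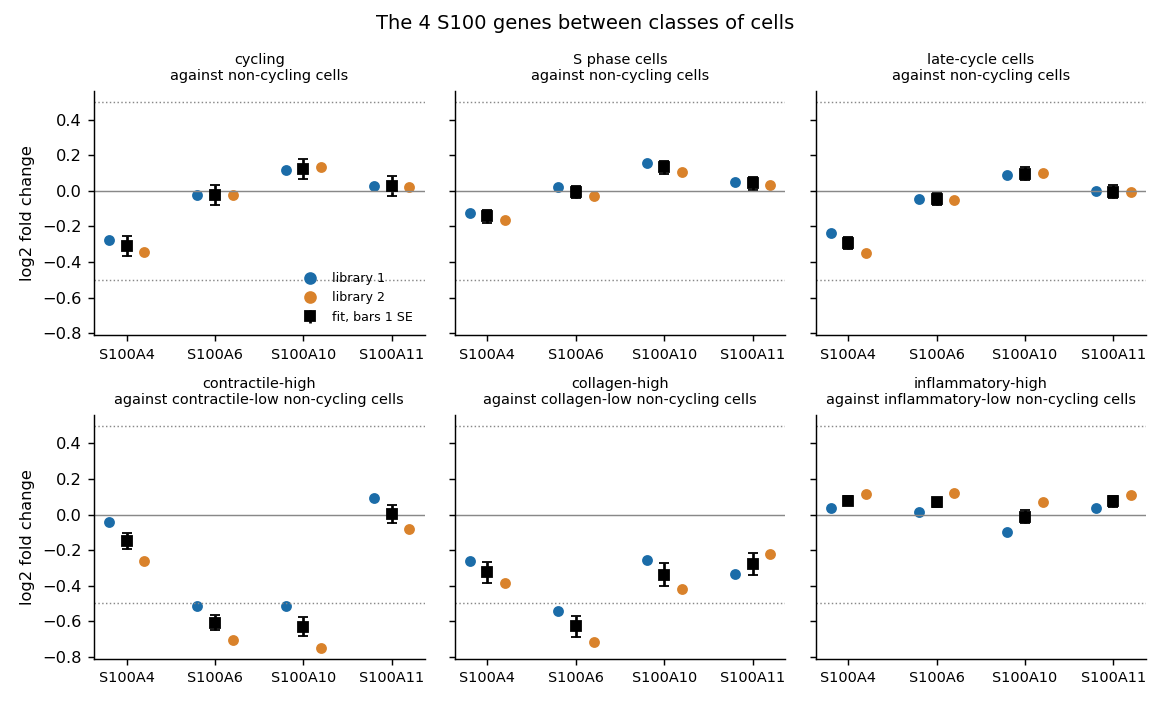
Log2 fold change of each S100 gene in 6 comparisons of cell classes, the fitted value with its standard error and the value of each library. S100A6 and S100A10 lie below -0.5 in contractile-high cells, and S100A6 also in collagen-high cells.

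Over bins of 10% of the non-cycling cells, S100A6 was highest in the lowest bin of the contractile score and lowest in the highest bin. It had 13361 CPM in the lowest and 7926 CPM in the highest bin of library 1, and 13505 and 6875 CPM in those of library 2. S100A10 had 2043 CPM in the lowest and 1158 CPM in the highest bin of library 1, and 1821 and 860 CPM in those of library 2. S100A11 had 2012 CPM in the lowest and 2073 CPM in the highest bin of library 1, and 1825 and 1636 CPM in those of library 2. TPM1 is both a score gene and the gene least like S100A6 above, so these are 2 views of the same cells.

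**Figure D5:**
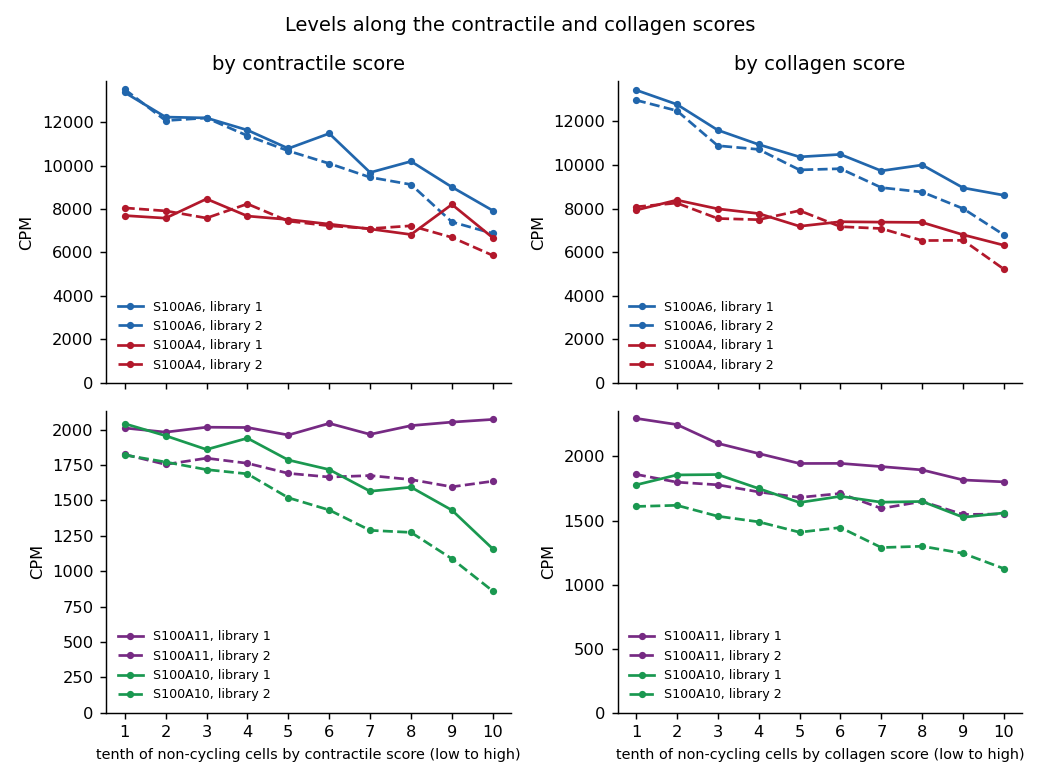
Level in CPM of the S100 genes over bins of 10% of non-cycling cells, in libraries 1 and 2. Bins run from the lowest to the highest contractile or collagen score. S100A6 goes down along the contractile score, to 7926 CPM in the highest bin of library 1, and along the collagen score, to 8611 CPM.

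Among 9 annexins tested, 3 fell in contractile-high cells and none rose, where 5.38% of all genes were called lower and 5.18% higher. ANXA2, the partner of S100A10, had 2041 CPM in contractile-high and 3155 CPM in contractile-low cells of library 1, and 2060 and 3046 CPM in those of library 2. Its log2 fold change was -0.55. ANXA7 fell by 0.70, and ANXA13 fell by 1.57 at levels of at most 2.11 CPM. The median of the 9 genes was -0.30, against -0.00 over all genes.

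Of 10 genes of the partner list tested, 2 rose in contractile-high cells, where 5.18% of all genes were called higher and 5.38% lower. They were MYH9 and MYH10, which encode non-muscle myosin heavy chains, at log2 fold changes of 0.77 and 0.55. Among 13 other EF-hand genes, the myosin light chain gene MYL6 rose by 0.60 and EFHD2 fell by 0.52. Among 7 other S100 genes, S100A5, S100A14 and S100A3 fell, at log2 fold changes of -0.89, -0.52 and -0.52. The medians were -0.03 for the partners, 0.05 for the EF-hand genes and -0.36 for the other S100 genes, against -0.00 over all genes.

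For the collagen score, 6 fibrillar and type VI collagen genes were summed. S100A6 fell in collagen-high cells and was the only one of the 4 members called, where 10.3% of 13115 genes were called, 4.96% as lower. It had 8973 CPM in collagen-high and 12877 CPM in collagen-low cells of library 1, and 7622 and 12523 CPM in those of library 2. Its log2 fold change was -0.63 ± 0.06 (SE), with an adjusted p of 1.1e-24 by edgeR's quasi-likelihood test.

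The other members had smaller differences of the same sign in both libraries. S100A10, S100A4 and S100A11 had log2 fold changes of -0.34, -0.33 and -0.28, with adjusted p of 1.4e-06, 7.3e-07 and 9.6e-05 by edgeR's quasi-likelihood test, and 24.8% of genes pass with no minimum size. Depth moved with this class: the median was 15438 and 13827 UMIs in collagen-high cells and 21447 and 23456 UMIs in collagen-low cells of libraries 1 and 2. Among cells between the quartiles of depth, an alternative added after seeing the data, S100A6 had -0.66. Between the outer 10% of cells S100A4 was called too, at -0.52. Without the library block the adjusted p of S100A6 was 0.343, and with classes set at 3000 UMIs its log2 fold change was -0.50, just short of the size asked for before rounding.

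Of 7 other S100 genes, 3 fell in collagen-high cells, where 4.96% of all genes were called lower and 5.38% higher: S100A2, S100A3 and S100A5, at log2 fold changes of -1.01, -0.67 and -0.62. Of 9 annexins, ANXA8 alone was called, and it fell by 0.92. MYH10 rose by 0.70 and TPM1 by 1.44 among 11 partners, and SPARC, a calcium-binding matrix protein gene, rose by 1.18 among 14 other EF-hand genes. TPM1 is also a contractile score gene. How far the collagen and contractile classes share cells was not counted, so the falls of S100A6 in both may not be separate results. The median log2 fold change was -0.39 for the other S100 genes, against 0.02 over all genes.

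In cells with a high score of 10 inflammatory genes, among them CCL2, CXCL8 and IL6, no member was called, and 1.59% of 13140 genes were. The classes were cut at 5 and 13 summed UMIs in library 1 and at 1 and 6 in library 2. Of non-cycling cells, 7.15% and 17.6% lay at the lower cut in libraries 1 and 2. Median depth was 21225 and 21779 UMIs in inflammatory-high cells of libraries 1 and 2, and 17428 and 19292 UMIs in inflammatory-low cells. S100A4 had 7709 CPM in inflammatory-high and 7763 CPM in inflammatory-low cells of library 1, and 7587 and 7127 CPM in those of library 2. The log2 fold changes of the 4 genes lay between -0.01 and 0.08, and the lowest adjusted p was 0.0905, for S100A4, by edgeR's quasi-likelihood test. Of 7 other S100 genes, S100A2 rose, at a log2 fold change of 0.77, where 1.34% of all genes were called higher. Of 14 other EF-hand genes MYL9 rose, by 0.59, and none of 9 annexins or 11 partners was called. AGER, which encodes the cell-surface receptor for several secreted S100 proteins, had only 0.0668 CPM in library 1 and 0.0570 CPM in library 2.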

How the data were processed

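Gene by barcode matrices of UMI counts were deposited for each library by the authors, and per the file headers the software was Cell Ranger 7.0.0. The submitters' processing notes name the build Sscrofa11.1. The 3′ kit counts molecules, so levels were not scaled by length. The lowest barcode total was 500 UMIs. Barcodes with at least 1000 genes were kept, and doublets were not removed. Levels are CPM of summed counts. Classes were set on cells thinned to 5000 UMIs with fixed seeds, and full counts were summed per library and class. Fits used edgeR 4.0.16 in R 4.3.3 (TMM scaling, filterByExpr, robust dispersion, library as a block, since both classes come from each library), with DESeq2 1.42.0 as an alternative; other scalings, filters, depths, class sizes and weights were also tried. Standard errors are the log2 fold change over the root of the F statistic. The fits and the spread measure were tested on simulated data. The members and gene lists were chosen with earlier results of these data known. List genes were named when called, or when among the most counted of their list, and the 5 most and 3 least alike genes of each member by correlation. Gene positions are RefSeq's. Listed genes with no row of that symbol were not used here.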

Additional observations from a re-analysis of the deposited data

Results flagged for a closer look

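The barcodes left out for having under 1000 genes, 1692 in library 1 and 972 in library 2, also held the 4 genes, far above the limit that a count of 0 allows, 1.68 CPM in library 1 and 3.35 CPM in library 2. S100A6 had 9777 CPM in these barcodes of library 1 and 8162 CPM in those of library 2, against 10892 and 10535 CPM in the cells. S100A4 had 5150 and 4603 CPM in them, against 6843 and 6697 CPM in the cells of libraries 1 and 2. S100A11 had 1798 and 1391 CPM in them, and S100A10 had 1644 and 1269 CPM. All 4 genes were lower there than in the cells of the same library. These barcodes had a median of 1013.5 and 874 UMIs in libraries 1 and 2. Their median share of UMIs in 23 mitochondrial rows, those with the symbol prefix KEF22, was 0.362% and 0.337%, against 0.137% and 0.112% in the cells. Mitochondrial genes under other symbols were not counted, so this need not be the share of all mitochondrial RNA. The part of depth and of this share in the levels was not tested.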

How the results depend on the processing

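Without the library block, the replicate block of every fit, 406, 236, 548, 7, 0 and 0 genes were called in cycling, S phase, late-cycle, contractile-high, collagen-high and inflammatory-high cells, against 3188, 1427, 2376, 1384, 1356 and 209 with it; for both counts of 0, edgeR had 1176 and 210 genes at an unadjusted p under 0.05. Of the members, S100A6 and S100A10 lost their contractile calls (-0.60 and -0.62 on the log2 scale) and S100A6 its collagen call (-0.62). DESeq2 called 2111, 949, 578, 483 and 56 genes in the cycling, S phase, contractile, collagen and inflammatory comparisons. With no minimum fold change the 6 counts were 7752, 4176, 6375, 2647, 3252 and 519. S100A4 then passed at -0.31 (cycling), -0.14 (S phase), -0.29 (late), -0.15 (contractile) and -0.33 (collagen), S100A10 at 0.13 (S phase), 0.10 (late) and -0.34 (collagen), and S100A11 at -0.28 (collagen). Collagen calls came to 899 among cells between the depth quartiles and 843 with cells weighted equally, and inflammatory calls to 115 with cells weighted equally and 383 with the outer 10% of cells, where S100A4 passed for collagen at -0.52. At 3000 UMIs S100A6 missed the minimum size at -0.49 (contractile) and -0.50 (collagen). Signs turned for S100A6 in cycling cells with classes on full counts (0.22), and in S phase without the 8% of cells with most UMIs (0.0107), between the depth quartiles (0.00730) and with equal weights (0.00647). For S100A11 they turned in cycling cells between the depth quartiles (-0.0263), late in the cycle at 3000 UMIs (0.0201), and in contractile-high cells without the top 8% (-0.0240), between the quartiles (-0.0168) and with equal weights (-0.00266). The mean of cells' own CPM was 6580 for S100A4. The cause of these changes was not tested. Of 260 values of the members under other settings, 236 kept their sign and call. Most of these belong to results that the main fit did not call either. The 5 values that lost a call were all of S100A6 or S100A10 in contractile-high cells or of S100A6 in collagen-high cells.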
